A study of Rattus norvegicus with 6 samples.

Results

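The transcripts described here encode 4 feedback regulators of p53 (Mdm2, Ppm1d, Ccng1 and Rchy1), the Mdm2 partner Mdm4, and the p53 relatives Tp63 and Tp73. All 7 were chosen by gene symbol and all 7 were found, each as a single row, among the 18930 genes of the count table. NRK-52E, an established wild-type epithelial line from normal rat kidney, was either treated with vehicle (Control, 3 samples) or kept for 24 h in 10 mM of streptozotocin (STZ, 3 samples), a glucose-linked nitrosourea that alkylates DNA. RNA was extracted at the end of treatment and sequenced as stranded mRNA libraries, and reads were counted per gene. The comparison is between the same line with and without the drug at 1 dose and 1 time. No sample with p53 removed or inhibited was sequenced, so dependence on p53 cannot be read from these data. It is not stated whether the samples were separate cultures, so each SD and p-value below speaks only of these samples.

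The p53 protein is a transcription factor that is held low in unstressed cells and accumulates after DNA damage. Mdm2 is a ubiquitin ligase that binds p53, blocks its activity and sends it to the proteasome, and its gene is itself switched on by p53, which closes a negative feedback loop. Mdm4 is a relative of Mdm2 that binds p53 and pairs with Mdm2 but has little ligase activity of its own. Rchy1 (also called Pirh2) is another p53-inducible ubiquitin ligase. Ppm1d (also called Wip1) is a phosphatase that removes activating phosphates from p53 and from the kinases above it. Ccng1 encodes cyclin G1, which recruits protein phosphatase 2A to Mdm2. Tp63 and Tp73 encode transcription factors of the p53 family.

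The Ccng1 promoter is shown first because a close match to the p53 recognition sequence stands in it. The p53 site consists of a pair of 10-letter half-sites. The consensus half-site, which reads the same on both strands, was searched in the 250 bases before the annotated start of each gene (RefSeq, build GRCr8), and all 7 genes had such a window. An exact half-site was found in 6.64% of 33465 windows of the same length, and among the 7 genes only Ccng1 held one. A 20-base full site, meaning half-sites side by side with no spacer, was found with at most 1 mismatch in 20 of the 33465 windows (0.0598%), 1 of which belonged to Ccng1. It lay 242 to 223 bases before the start. The window lies on the minus strand at chr10:25684877-25685126 of GRCr8 and is written 5′ to 3′ with that full site in capitals.
Ccng1: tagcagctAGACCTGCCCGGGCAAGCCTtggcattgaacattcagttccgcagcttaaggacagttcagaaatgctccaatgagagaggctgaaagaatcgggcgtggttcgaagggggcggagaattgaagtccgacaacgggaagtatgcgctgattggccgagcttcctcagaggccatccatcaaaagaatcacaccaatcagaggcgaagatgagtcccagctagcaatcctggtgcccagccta
A match of letters is a description and does not show that p53 was bound there. The closest 20-base stretch in the windows of the other 6 genes had 4 to 6 mismatches, from 4 in Tp63 to 6 in Mdm2 and Rchy1. The windows of Mdm2, Mdm4, Tp63 and Tp73 belong to starts that lie inside the annotated span of the gene (966 bases inside for Mdm2, whose known p53 response elements lie in its first intron). No match says only that these letters are not in that window.

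Libraries held 10430924 to 15191349 counted reads. Levels are given in CPM, the reads of a gene scaled to one common library depth, with library sizes adjusted by edgeR's TMM method, whose factors lay between 0.988 and 1.02. Of the 18930 genes, 11870 had enough reads to be tested by edgeR's quasi-likelihood test, and p-values were adjusted over all of them by the Benjamini-Hochberg method. That test estimates the spread of a gene with information shared across genes, so its p-values do not rest on the values of that gene alone. A gene rose or fell when its adjusted p was under 0.05, and it passed both thresholds when its absolute log2 fold change (STZ against Control) was also over 1. These cells carried little of a mature proximal tubule profile. Of 6 proximal tubule markers with a row, Aqp1 alone exceeded 10 reads in a sample. The other 5 (Cubn, Lrp2, Slc2a2, Slc34a1, Slc5a2) did not, and the 6 together summed to 9.90 to 16.5 CPM in Control and 5.74 to 6.83 CPM in STZ. Most of that sum was Aqp1, which fell past both thresholds from a mean of 13.1 to 5.43 CPM (log2 fold change -1.25, edgeR adjusted p = 9.36e-09). Of 5 epithelial and kidney lineage markers, Krt18 and Pax8 also stayed at 10 reads or fewer, while Krt8 and Vim were abundant. Those 5 markers summed to 2999 to 3274 CPM in Control and 3427 to 3476 CPM in STZ. Of the 3 tested, Krt8 rose (mean 1149 to 1604 CPM), while Vim, which is also a mesenchymal marker, fell (2001 to 1842 CPM), as did Cdh1 (log2 fold change -0.69, edgeR adjusted p = 0.0296). Markers of fibroblasts, endothelium, leukocytes and podocytes (8 genes) summed to 47.7 to 54.5 CPM in Control and 40.8 to 46.7 CPM in STZ. The part of these differences in the results below was not tested, and in bulk RNA fewer cells of a type and less RNA per cell cannot be told apart.

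Mdm2 and Ccng1 rose several-fold in STZ-treated cells, whereas Mdm4, Ppm1d and Rchy1 had folds of 0.895 to 1.16. Of the 7 genes, 5 passed the filter on low counts, and Tp63 and Tp73 did not. Among the 5 tested, 3 rose (Mdm2, Ccng1 and Ppm1d), 1 fell (Rchy1) and Mdm4 did not pass the adjusted p. Over all genes tested, 50.9% passed this rule (25.9% as higher and 25.1% as lower), so a call by adjusted p alone was common. Both thresholds were passed by Mdm2 and Ccng1, against 3.37% of all genes tested (2.26% as higher and 1.11% as lower). The groups did not overlap for 3 of the 5 (Mdm2 and Ccng1 higher, Rchy1 lower), against 56.3% of all genes tested (28.6% as higher and 27.7% as lower). The reads of the 7 genes together summed to 645 to 681 CPM in Control and 1812 to 1901 CPM in STZ, here on unscaled totals. Mdm2 and Ccng1 made up 80.8% to 81.2% of these reads in Control and 93.4% to 93.5% in STZ.

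**Figure D1:**
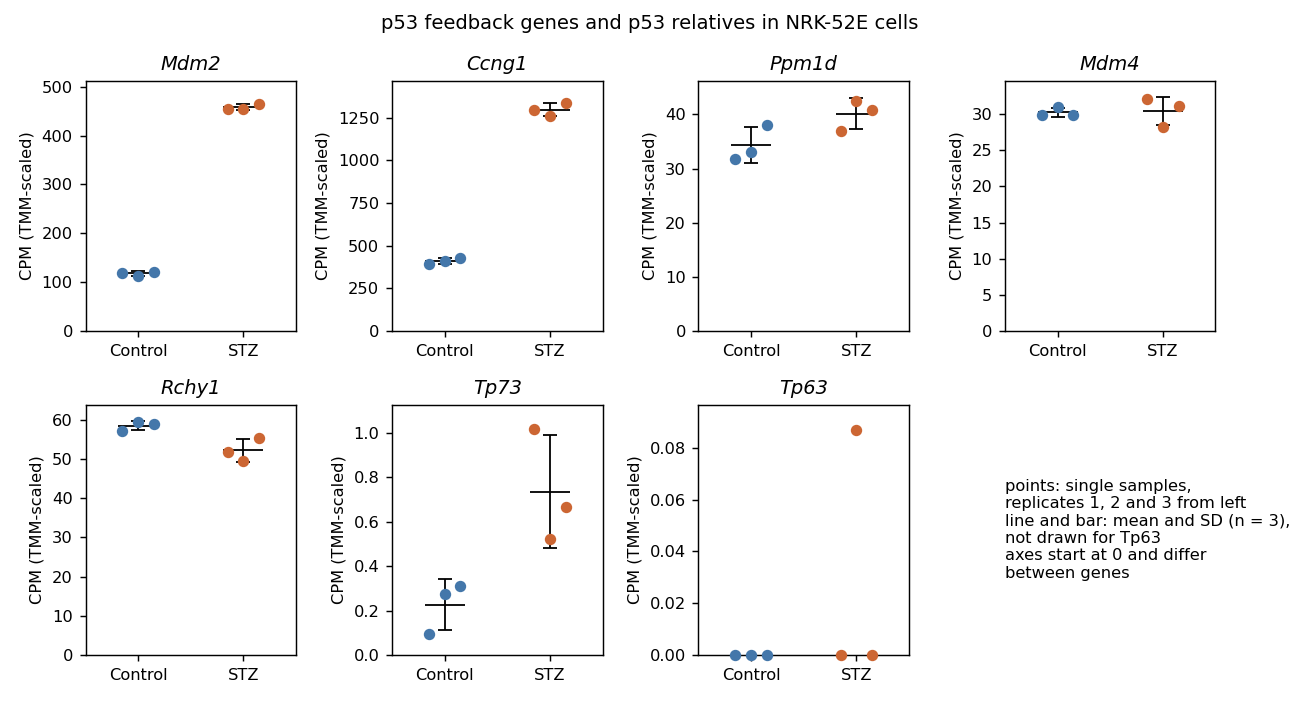
Level of each of the 7 genes in each sample, as TMM-scaled CPM (vertical axis, starting at 0, with a range of its own for each gene), in Control (blue) and STZ (orange). Mdm2 rose from 113 to 122 CPM to 454 to 465 CPM and Ccng1 from 395 to 427 CPM to 1261 to 1334 CPM, while Mdm4 overlapped between groups and Tp63 was at 0 in 5 of 6 samples.

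Mdm2, the ubiquitin ligase at the centre of the loop, was measured at 119.7, 113 and 122 CPM in Control replicates 1, 2 and 3. In STZ replicates 1, 2 and 3 it reached 454, 454 and 465 CPM. The groups lay far apart, and the STZ samples differed from each other by less than the Control samples did relative to their mean (coefficient of variation 1.38% against 4.04%). Mdm2 had 1240 to 1563 reads per Control library and 5224 to 6969 per STZ library. The part of read number in that difference of spread was not tested. For Mdm4 and Rchy1 the STZ samples varied more than Control (6.40% against 2.07% and 5.66% against 2.08%). The means were 118 ± 4.77 CPM in Control and 458 ± 6.30 CPM in STZ (SD, n = 3 each). The log2 fold change was 1.95 (standard error 0.04, 95% interval 1.87 to 2.04), a 3.87-fold rise, with an adjusted p of 3.52e-34 from edgeR's quasi-likelihood test. By p-value Mdm2 stood at rank 2 of the 11870 genes, behind Cdkn1a, which encodes the cell cycle inhibitor p21. By size of rise it stood at rank 48.

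Mdm4, the partner of Mdm2, was measured at 29.9, 30.9 and 29.8 CPM in Control and at 32.0, 28.2 and 31.0 CPM in STZ. The STZ samples lay on both sides of the Control samples. Means were 30.2 ± 0.626 CPM in Control and 30.4 ± 1.95 CPM in STZ (SD, n = 3 each). The log2 fold change was 0.02 (adjusted p = 0.877 by edgeR, standard error 0.07). Its 95% interval ran from -0.13 to 0.16, or 0.914-fold to 1.12-fold. A change of Mdm4 transcript as large as that of Mdm2 lay far outside this interval. The sign of so small a value depended on scaling and turned negative with library size only (-0.018) and with the upper quartile (-0.0035). In the GRCr8 annotation the span of Mdm4 overlaps Pik3c2b, Lrrn2 and a pair of transfer RNA genes, and whether reads were assigned by strand is not given, so reads of these genes may not be fully separated.

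Rchy1, the other ubiquitin ligase of the group, was measured at 57.1, 59.5 and 58.9 CPM in Control and at 51.7, 49.6 and 55.4 CPM in STZ. Every STZ sample lay below every Control sample, as for 27.7% of the genes tested. Means were 58.5 ± 1.22 CPM in Control and 52.2 ± 2.96 CPM in STZ (SD, n = 3 each). The log2 fold change was -0.16 (95% interval -0.27 to -0.04, standard error 0.06, edgeR adjusted p = 0.018), which is 0.895-fold. This small fall was no longer called when Control replicate 2, STZ replicate 1 or STZ replicate 2 was left out, nor by DESeq2's Wald test (adjusted p 0.0582 to 0.0972 over these 4 fits). The span of Rchy1 overlaps Thap6 in GRCr8, and 1 pseudogene is named after it.

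Ppm1d, the phosphatase that acts on p53 and on its upstream kinases, was measured at 31.9, 33.1 and 38.1 CPM in Control and at 36.9, 42.5 and 40.9 CPM in STZ. Control replicate 3 lay above STZ replicate 1, so the groups overlapped. Means were 34.3 ± 3.28 CPM in Control and 40.1 ± 2.86 CPM in STZ (SD, n = 3 each), the widest relative spreads of the 5 genes tested (coefficients of variation 9.54% and 7.14%). The log2 fold change was 0.22 (95% interval 0.07 to 0.36, standard error 0.07, edgeR adjusted p = 0.0104), a 1.16-fold rise. The call was lost without Control replicate 1, Control replicate 2, STZ replicate 2 or STZ replicate 3 in turn (adjusted p 0.0503 to 0.0736). The span of Ppm1d overlaps 1 unnamed protein-coding gene in GRCr8.

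Ccng1, which encodes cyclin G1 and whose promoter window was printed above, was measured at 395, 409 and 427 CPM in Control. In STZ it reached 1296, 1261 and 1334 CPM. The lowest STZ sample lay far above the highest Control sample. Means were 411 ± 15.8 CPM in Control and 1297 ± 36.9 CPM in STZ (SD, n = 3 each). The log2 fold change was 1.66 (standard error 0.04, 95% interval 1.58 to 1.73), a 3.16-fold rise with an adjusted p of 4.59e-33 from the edgeR test. Ccng1 stood at rank 3 by p-value and at rank 84 by size of rise. The 95% intervals of the Mdm2 and Ccng1 log2 fold changes did not overlap. The spans of Mdm2 and Ccng1 overlap no other annotated gene in GRCr8. Overlaps in Rnor6, the build on which reads were counted, were not checked.

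**Figure D2:**
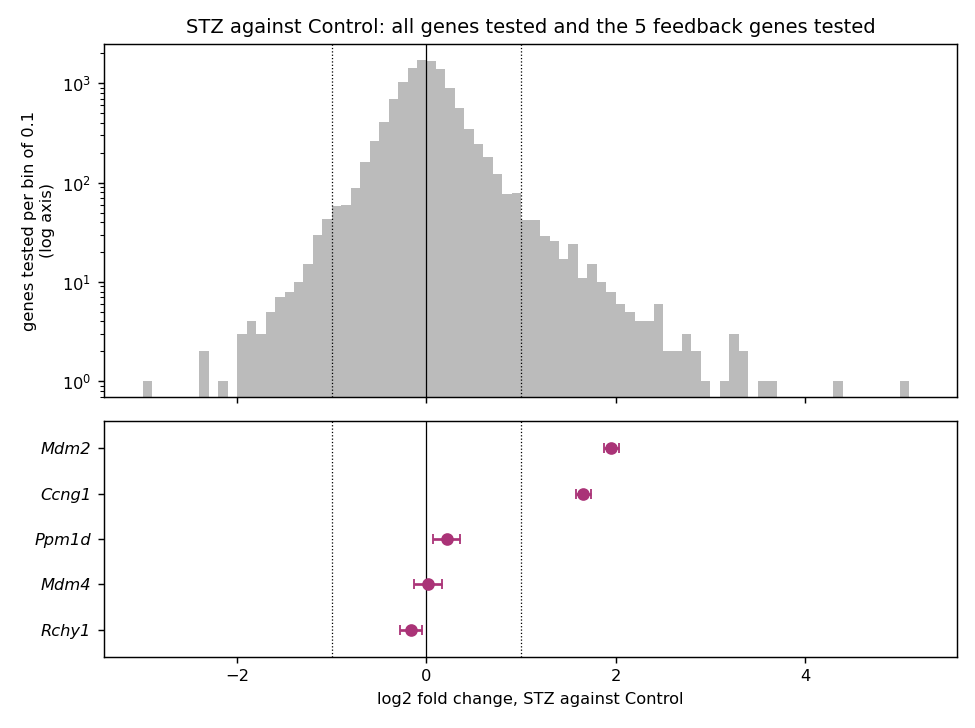
Log2 fold change (STZ against Control, horizontal axis) of the 11870 genes tested, as a histogram with a log axis of gene numbers (top), and of the 5 feedback genes tested with 95% intervals (bottom); dotted lines mark the fold threshold of 1. Mdm2 (1.95) and Ccng1 (1.66) lie in the sparse right tail, and Ppm1d (0.22), Mdm4 (0.02) and Rchy1 (-0.16) lie in the centre where most genes are.

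The p53 relatives were barely expressed. Tp63 had 1 read in all 6 libraries, in STZ replicate 2. No read in the 34070847 counted in Control allows a level of up to 0.0881 CPM (3 counts of the total, counting error only). Tp73 had 1, 3 and 4 reads in Control replicates 1, 2 and 3, and 14, 6 and 10 reads in STZ replicates 1, 2 and 3. Every STZ library had more Tp73 reads than every Control library. Summed over replicates, 8 reads in Control and 30 in STZ gave a ratio of 3.13 per read counted, with an exact binomial 95% interval of 1.40 to 7.91 that covers counting error only. Tp73 was too low to be tested under the filter used here. Without any filter, edgeR's quasi-likelihood test gave a log2 fold change of 1.64 (adjusted p = 0.022, standard error 0.60). Adjusted p-values of that fit are not comparable with those of the filtered fit. By the same edgeR test, the p53 target Pmaip1 had 1.03e-128 against 2.31e-24, and Rchy1 had 0.0244 against 0.018. A long non-coding RNA overlaps the span of Tp73 in GRCr8, so these few reads may not all be from Tp73.

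To describe the balance within each pair of relatives without any library scaling, 3 ratios of read counts were taken within each sample. The ratios are not corrected for gene length, so only their change between groups is read. The ratio of Mdm2 to Mdm4 was 4.01, 3.65 and 4.09 in Control and 14.2, 16.1 and 14.99 in STZ. It thus rose 3.85-fold with no overlap (3.92 ± 0.236 against 15.1 ± 0.939, SD, n = 3 each). The ratio of Ccng1 to Ccng2, the gene of the related cyclin G2, was 6.19, 6.04 and 6.35 in Control and 12.7, 13.9 and 14.7 in STZ, a 2.22-fold rise with no overlap. Ccng2 itself rose less, from 63.9, 67.8 and 67.3 CPM in Control to 101.8, 90.8 and 91.0 CPM in STZ, a log2 fold change of 0.51 (edgeR adjusted p = 5.95e-11, standard error 0.05). The ratio of Ppm1d to Ppm1a, a related phosphatase, was 0.419, 0.417 and 0.470 in Control and 0.462, 0.536 and 0.540 in STZ, and these groups overlapped. Ppm1a had a log2 fold change of -0.01 (95% interval -0.11 to 0.09, edgeR adjusted p = 0.868), and its sign changed when Control replicate 3 or STZ replicate 3 was left out. With 3 samples against 3 the smallest two-sided exact permutation p is 0.1, and this value was reached for the ratio of Mdm2 to Mdm4 and for that of Ccng1 to Ccng2 (adjusted 0.15 over the 3 ratios). For the ratio of Ppm1d to Ppm1a the exact permutation p was 0.2 (adjusted 0.2).

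**Figure D3:**
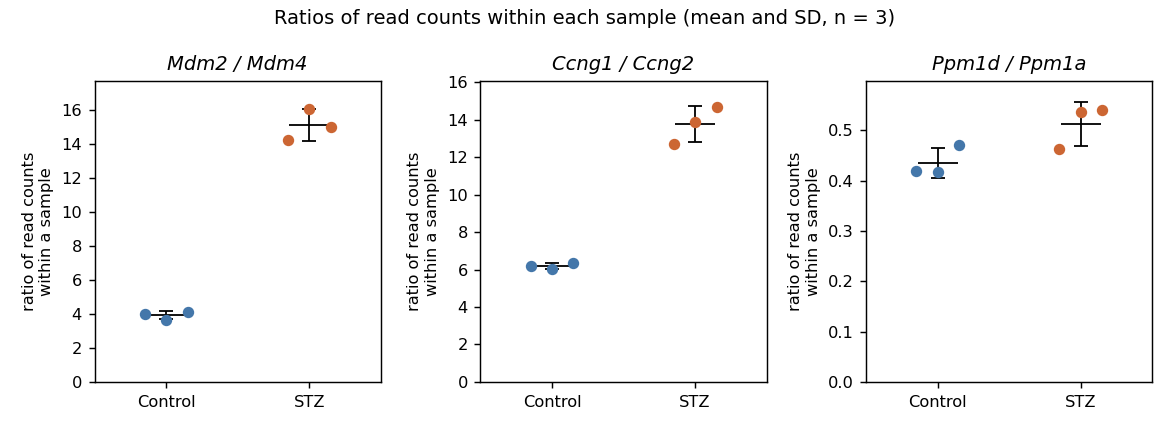
Ratio of read counts within each sample (vertical axis, starting at 0) for 3 pairs of related genes, in Control (blue) and STZ (orange), with mean and SD (n = 3). The Mdm2 to Mdm4 ratio went from 3.65 to 4.09 in Control to 14.2 to 16.1 in STZ, and the Ppm1d to Ppm1a ratio overlapped between groups.

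Other proteins that act on p53 or on the genes above were read from lists grouped by role, and no log2 fold change in the 7 regulator lists exceeded 0.73 in size. Over all genes tested the median log2 fold change was -0.01, while 25.9% rose and 25.1% fell. Of 11 further ubiquitin ligases reported to act on p53, 1 rose, 4 fell and 6 did not pass the adjusted p, with a median of -0.08. Trim28, a corepressor that cooperates with Mdm2, fell the most, from 447, 439 and 455 CPM in Control to 320.5, 331 and 335 CPM in STZ (log2 fold change -0.44, adjusted p = 1.02e-13, edgeR). All 3 of its STZ samples lay below the Control samples. Topors rose with a log2 fold change of 0.16, a call lost without STZ replicate 3 (adjusted p = 0.0756, edgeR).

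Of 7 deubiquitinases of p53 or Mdm2, 3 rose (against 25.9% of all genes tested), 3 fell (against 25.1%) and 1 did not pass. The median was 0.07. Usp2, which removes ubiquitin from Mdm2, rose from 15.4, 14.4 and 12.2 CPM to 22.9, 19.9 and 20.02 CPM (log2 fold change 0.59, adjusted p = 2.17e-06, edgeR). Usp42 fell the most of this list, with a log2 fold change of -0.35.

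Of 12 inhibitors and cofactors of Mdm2 tested, 7 rose (against 25.9% of all genes tested), 3 fell (against 25.1%) and 2 did not pass. The median was 0.12. Rps27l, a ribosomal protein relative that binds Mdm2 and is known as a p53 target, rose from 139.8, 139.9 and 132 CPM to 233, 223 and 227 CPM (log2 fold change 0.73, adjusted p = 8.55e-19, edgeR). No other gene of the 7 regulator lists had so large a rise. Npm1, the nucleolar protein nucleophosmin, fell with a log2 fold change of -0.29. Genes of this list such as Npm1 and those of ribosomal proteins have near-identical pseudogenes, so their counts are less certain. Cdkn2a, which in other cells encodes the Mdm2 inhibitor ARF, had no read in Control and 1, 0 and 2 reads in STZ, and it was not tested.

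Of 10 kinases and acetyltransferases that activate p53, 8 fell and 2 did not pass the adjusted p, where 25.1% of all genes tested fell. Their median log2 fold change was -0.23, and they ranged from -0.39 to 0.15. The acetyltransferase Kat5 (Tip60) fell the most, from 54.1, 56.9 and 49.6 CPM to 38.5, 43.8 and 40.8 CPM (log2 fold change -0.39, adjusted p = 2.21e-06, edgeR). These are transcript levels, and the phosphorylation or acetylation of p53 is not measured by them.

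Of 10 tested phosphatases of the family of Ppm1d, 2 rose (against 25.9% of all genes tested), 3 fell (against 25.1%) and 5 did not pass. The median was 0.04. Ppm1e rose the most, from 7.26, 7.002 and 6.71 CPM to 9.01, 10.4 and 11.1 CPM (log2 fold change 0.54, adjusted p = 5.95e-04, edgeR), and Ppm1g fell the most (-0.38). The log2 fold change of Ppm1d, 0.22, lay inside the range of its relatives.

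Of 11 partners or relatives of cyclin G1, 2 rose (the relative Ccng2 and the partner Gak), 2 fell and 7 did not pass. Their median was -0.03, and 25.9% of all genes tested rose and 25.1% fell. Ccng2 had the largest rise, given above. The 5 regulatory B′ subunits of protein phosphatase 2A (Ppp2r5a to Ppp2r5e) did not pass the adjusted p, with log2 fold changes of -0.05 to 0.14. The scaffold subunits Ppp2r1a and Ppp2r1b fell, with log2 fold changes of -0.18 and -0.23.

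Of 9 regulators of p63 and p73, 2 rose (against 25.9% of all genes tested), 3 fell (against 25.1%) and 4 did not pass. The median was -0.07. The largest rise was that of Ppp1r13l, which encodes the inhibitor iASPP, from 33.3, 38.6 and 34.9 CPM to 44.6, 44.5 and 49.4 CPM (log2 fold change 0.38, adjusted p = 7.37e-06, edgeR). Wwox fell the most (-0.47) but had 43 to 77 reads per library, and its call was lost without Control replicate 1, Control replicate 3 or STZ replicate 3 and by DESeq2's Wald test (adjusted p 0.0647 to 0.261 over these 4 fits). Its log2 fold change was -0.31 without Control replicate 3 and -0.62 without Control replicate 2.

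For comparison, 22 target genes of p53 with roles mostly in the cell cycle, apoptosis and DNA repair had a median log2 fold change of 1.03. Of these, 18 rose, 11 of them past both thresholds, 1 fell (Ddb2, -0.53) and 3 did not pass. Over all genes tested, 25.9% rose and 2.26% rose past both thresholds. The 11 ranged from Bbc3 (1.14) to Fas (3.25) and also included Cdkn1a, Pmaip1, Sesn2, Btg2, Plk2, Phlda3, Aen, Tp53inp1 and Eda2r. Over all 22 the log2 fold changes ran from -0.53 to 3.25. Mdm2, Ccng1, Ppm1d, Mdm4 and Rchy1 lay inside this range, which is too wide to show likeness. Gadd45a (0.34), Rrm2b (0.21), Polk (0.22), Xpc (-0.10) and Sesn1 (-0.18) were the effectors nearest to Ppm1d, Mdm4 and Rchy1.

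**Figure D4:**
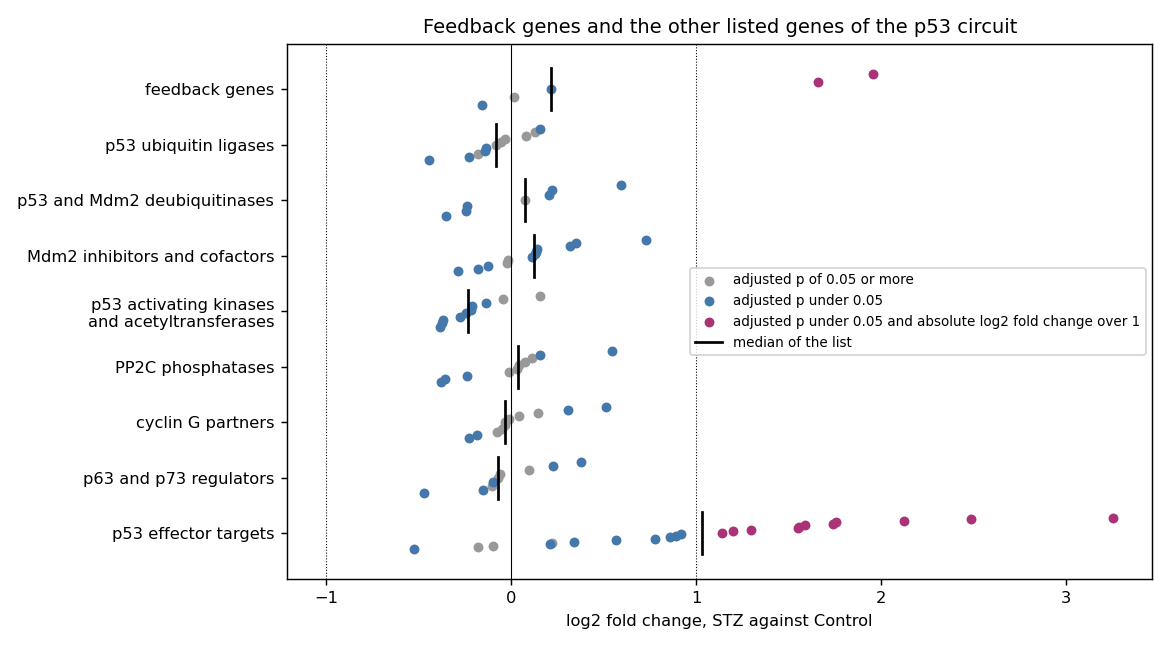
Log2 fold change (STZ against Control, horizontal axis) of each tested gene in the feedback group (Mdm4 included) and in 8 lists of related genes. Points are coloured by the call, with the median of each list as a black line. Points past both thresholds stand in the feedback group (Mdm2, Ccng1) and among the effector targets (11 genes) and in none of the other 7 lists.

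The genes whose levels followed Mdm2 and Ccng1 most closely were found by the Euclidean distance over the 6 samples between log2 CPM values centred on the Control mean (prior count of 2), among 11020 other genes with a symbol. This measure chooses genes for their likeness, so their values are a description with no test. Nearest to Mdm2 were Capg, which encodes an actin-capping protein (distance 0.173), Ephx1, which encodes microsomal epoxide hydrolase (0.262), and Adam8, which encodes a membrane metalloprotease (0.311). Capg went from 33.9, 37.3 and 37.5 CPM in Control to 144.7, 143 and 146 CPM in STZ. Nearest to Ccng1 were Inka1 (distance 0.0239), Ankrd13d (0.164) and Anxa8, an annexin (0.17). Ankrd13d went from 19.0, 17.8 and 18.7 CPM to 55.9, 56.3 and 56.9 CPM. Inka1 had only 22 to 29 reads per Control library and 81 to 112 per STZ library, so its distance depends on the prior count. With a prior count of 0.5, chosen after seeing the data, its distance was 0.0962. Inka1 and Ankrd13d then stayed the nearest to Ccng1, as did Capg and Ephx1 to Mdm2, but Tnfaip6 took the place of Anxa8 and Cdc42bpg that of Adam8. Mdm2 and Ccng1 lay 0.521 apart on the same measure, and neither was among the 3 nearest genes of the other. This distance includes the difference between their log2 fold changes (1.95 and 1.66).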

How the data were processed

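RNA-seq of 3 Control and 3 STZ samples was analysed. Single-end reads were aligned by the authors to Rnor6 using STAR 2.7.10a, reads with a unique hit were assigned to genes by featureCounts, and the resulting raw counts were deposited, 1 column a sample. Strand setting and annotation release are not given in the sources used here. Columns were assigned by their titles.

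From these counts, TMM scaling, filterByExpr (minimum count 10) and the quasi-likelihood test of edgeR 4.0.16 in R 4.3.3 were computed over the whole table, with both thresholds of the study. Log2 CPM for distances used a prior count of 2. Standard errors were obtained from the F statistic (log2 fold change over its root). Only the edgeR fit was run on simulated counts, with a common dispersion and few changed genes, so the other steps were not tested in this way. Alternatives were 3 filters, 3 scalings, DESeq2 1.42.0, limma-voom (limma 3.58.1), blocking on replicate number, and omission of each sample. Replicates differed by more than sampling noise (chi-square per degree of freedom 1.85 to 2.56). Total counts limit the precision for low genes.

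The members and lists were chosen with earlier results of these data known. Named genes are the 7 members, the relatives in the ratios, the largest rise and fall among called genes of each list, list genes past both thresholds, and the 3 nearest genes of Mdm2 and of Ccng1. Ppp2r1a, Ppp2r5a to Ppp2r5e, Gak, Cdkn2a, Gadd45a, Rrm2b, Polk, Xpc, Sesn1, Tnfaip6, Cdc42bpg and the marker genes were named outside this rule after their values were seen. Of the listed genes, 7 have no row under their symbol. The transcript of p53 itself and 1 listed marker are not reported here. Promoter windows and gene overlaps came from RefSeq (GRCr8), a later build than that of the counts, and no coordinates were converted.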

Additional observations from a re-analysis of the deposited data

How the results depend on the processing

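Mdm2 and Ccng1 kept their direction and passed both thresholds under all 15 alternatives, with log2 fold changes of 1.92 to 1.98 and 1.62 to 1.69. Of the 5 genes tested, 4 passed the adjusted p. This became 2 to 4 when a sample was omitted (2 without Control replicate 2 or STZ replicate 2, as Ppm1d and Rchy1 lost their calls). It was 3 with DESeq2, and 5 of 7 with no filter, which adds Tp73. Over all genes, 6046 of 11870 passed it in the main fit and 5049 of 11870 with DESeq2. With no filter 6038 of 18930 passed. Without Control replicate 2 it was 5526 of 12059, and without STZ replicate 2 it was 5545 of 12062. Both thresholds were passed by 2 genes, and by 3 (Tp73 added) with no filter. Requiring 0.5 CPM in 1 sample gave the same counts of 5 and 3, but Tp73 passed that filter only through the STZ samples where it is high, so its call there supports nothing. Mdm4 turned to -0.0035 with the upper quartile and to -0.018 with library size only, and spanned -0.018 to 0.063 when single samples were omitted. Ppm1a then spanned -0.036 to 0.015. The cause was not tested. Over the 37 named genes tested, 536 of 554 refits kept direction and call, 13 lost the call and 5 changed sign. The number of genes past both thresholds was 400, and 249 when at least 10 counts were required in every sample, where fewer genes were tested. It was 585 with no filter and 565 with 0.5 CPM in 1 sample. Omitting single samples gave 403 to 462. The ratio differences kept their sign in all fits.

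Control and STZ share replicate numbers, but same-numbered samples had deviations that correlated at 0.0319, -0.0389 and 0.102 over 10341 genes, and 3 of 6 samples correlated best with their own number, so no pairing was taken from the numbers. Under the replicate block, 4 of the 5 genes tested passed the adjusted p and 2 both thresholds, as without it. Over the whole table, 6199 of 11870 genes passed the adjusted p and 398 passed both thresholds. Depth limited Tp63, Tp73 and Cdkn2a, for which smaller changes were not detectable.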
